A study of Danio rerio with 9 samples.

Results

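The genes described here build the coats and carriers of the early secretory pathway. They cover the COPI and COPII coats and the machinery that brings new proteins into the endoplasmic reticulum (ER). The p24 cargo receptors, Sec22-named genes, golgins and the exocyst are also among them. All were chosen by gene name (*cop*, *sec*, *golg*, *tmed*, *ssr*, *srp*, *spcs* and *exoc* symbols), by a rule that uses no expression value, written when earlier results of these data were known. The rule found 79 of the 33737 genes in the expression table. By role these were 8 genes of the signal recognition particle and its receptor, 6 of the Sec61 translocon and 5 of the TRAP complex. A further 3 were of signal peptidase and 12 of the COPII coat and ER exit sites. The others were 11 p24 receptors, 7 COPI subunits, 4 Sec22-named genes, 9 golgin-named genes and 14 exocyst-named genes.

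Whole zebrafish embryos of the TuAB strain were compared in 3 groups at 72 hours post fertilization (hpf). The WT group was wild type: the labels give the TuAB strain alone, while the study's text speaks of wild-type siblings. The Mut group was MZcep290-/-, maternal zygotic mutants with a 10-bp deletion in exon 16 of the ciliary transition zone gene *cep290* (allele fb208, made with CRISPR/Cas9), so neither egg nor embryo carried a wild-type copy. The Mor group was wild type injected with cep290ex25MO, a morpholino against the splice donor of exon 25, and no library of embryos injected with a control morpholino was analysed here. Each group had 3 libraries, each from a pool of 30 embryos. The purpose of the design was to set the transcripts of a genetic mutant beside those of a knockdown of the same gene. Nothing in the labels says whether the pools came from separate clutches, so p-values measure the spread between pools. In pooled whole embryos, fewer cells of a type and less RNA per cell cannot be told apart.

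As background, a protein bound for secretion or for a membrane is recognised at the ribosome by the signal recognition particle, docked at its receptor and threaded through the Sec61 channel. COPII vesicles carry it from ER exit sites towards the Golgi, COPI vesicles return escaped ER proteins and Golgi enzymes, and golgins and SNAREs tether and fuse the carriers. In the zebrafish larva the pathway is heavily used by liver, exocrine pancreas, hatching gland, and the cartilage and notochord cells that secrete matrix. Loss of the COPII cargo adaptor *sec24d* or of *sec23a* is known in zebrafish for craniofacial cartilage defects, and loss of *copa*, *copb1* or *copb2* for notochord defects.

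The libraries differed in depth, with 5652757 to 7674248 reads on genes in WT, 18662115 to 21299112 in Mut and 9050375 to 16150393 in Mor. On a 2-kb gene the floor used here, 3 reads, was worth 0.265 to 0.309 RPKM (reads per kilobase of gene, relative to normalized library size) in WT and 0.0535 to 0.0615 RPKM in Mut. The 50 highest genes took 40.8 to 41.9% of reads in WT, 21.3 to 22% in Mut and 27.8 to 34.0% in Mor. Replicates correlated across genes at 0.744 to 0.796 in WT, against 0.965 to 0.968 in Mut. The *cep290* transcript was at 2.6, 1.62 and 1.72 RPKM in WT, 1.32, 1.14 and 1.29 in Mut and 5.45, 6.15 and 3.36 in Mor. Its log2 fold change in Mut was -0.60 ± 0.31 (SE, limma, adjusted p = 0.158), and in Mor it was 2.42-fold above WT (log2 1.28 ± 0.31, adjusted p = 0.0113). A splice-blocking morpholino need not lower a gene count, so these values do not check the Mor label. Of the 22 whole-embryo marker genes, all but 1 or 2 were detected in each group. Of the 20 tested, 15 were called lower and 3 higher in Mut, and 8 lower and 1 higher in Mor. The 3 called higher in Mut were the neuronal markers *elavl3*, *snap25a* and *stmn1b*. The summed level of the 22 genes was 67545 to 88224 RPKM in WT, 22420 to 23565 in Mut and 38341 to 53975 in Mor. The largest part of that sum was the muscle gene *actc1b* (mean 44509 RPKM in WT, 11370 in Mut and 25901 in Mor).

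Of the 79 genes, 78 passed the filter on low values (at least 0.5 RPKM in at least 3 libraries) and were tested. The gene left out was *golga7bb*. Their mean levels ran from 0.699 RPKM for the *exoc3l1* copy ENSDARG00000097916 to 131 RPKM for *sec61a1*. Changes are log2 differences of RPKM + 0.1 from limma, with p-values adjusted over all 21982 genes tested, and a gene is called when its adjusted p was under 0.05 and its fold above 2.

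Against WT, 11 of the 78 genes were called higher in Mut (14.1%) and 6 lower (7.69%), beside 10.4% and 12.1% of all genes tested. Among genes whose mean reached 2 RPKM, the counts were 10 higher and 4 lower of 72 (13.9% and 5.56%), beside 14.5% and 7.04% of all such genes. In Mor, 8 were called higher (10.3%) and 3 lower (3.85%), beside 7.45% and 14.9% of all genes, and with the level restriction 7 and 1 of 72, beside 10.3% and 4.31%. These counts lay near the shares of all genes at that level. At an adjusted p under 0.05 and any fold, 28 of the 78 were above and 20 below WT in Mut, beside 17.8% and 18.2% of all genes. In Mor 33 were above and 7 below, beside 16.6% and 18.5%. These were larger shares than those of all genes, except for the genes below WT in Mor, a smaller one. Shares of all genes at the same level were not counted at this threshold. The median log2 fold change of the 78 genes was 0.28 in Mut and 0.35 in Mor, beside -0.02 and -0.05 for all genes. Among genes averaging 2 RPKM or more the gap was smaller. All such genes had medians of 0.17 and 0.20, beside 0.28 and 0.35 for the 72 genes. In narrower bands of level it did not close throughout. From 8 to 16 RPKM the genes described here were at 0.55 in Mut and 0.61 in Mor, beside 0.24 and 0.35 for all genes. From 32 to 64 RPKM they were at -0.02 and 0.29, beside -0.02 and 0.25. With cyclic loess scaling the medians of the 78 genes were 0.15 and 0.18, beside 0.08 and 0.07 for all genes. With libraries scaled by read totals the median of all genes moved to 0.68 in Mut and 0.22 in Mor, and that of these genes to 1.00 and 0.63, so signs of small changes below hold relative to the deposited scaling.

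**Figure D1:**
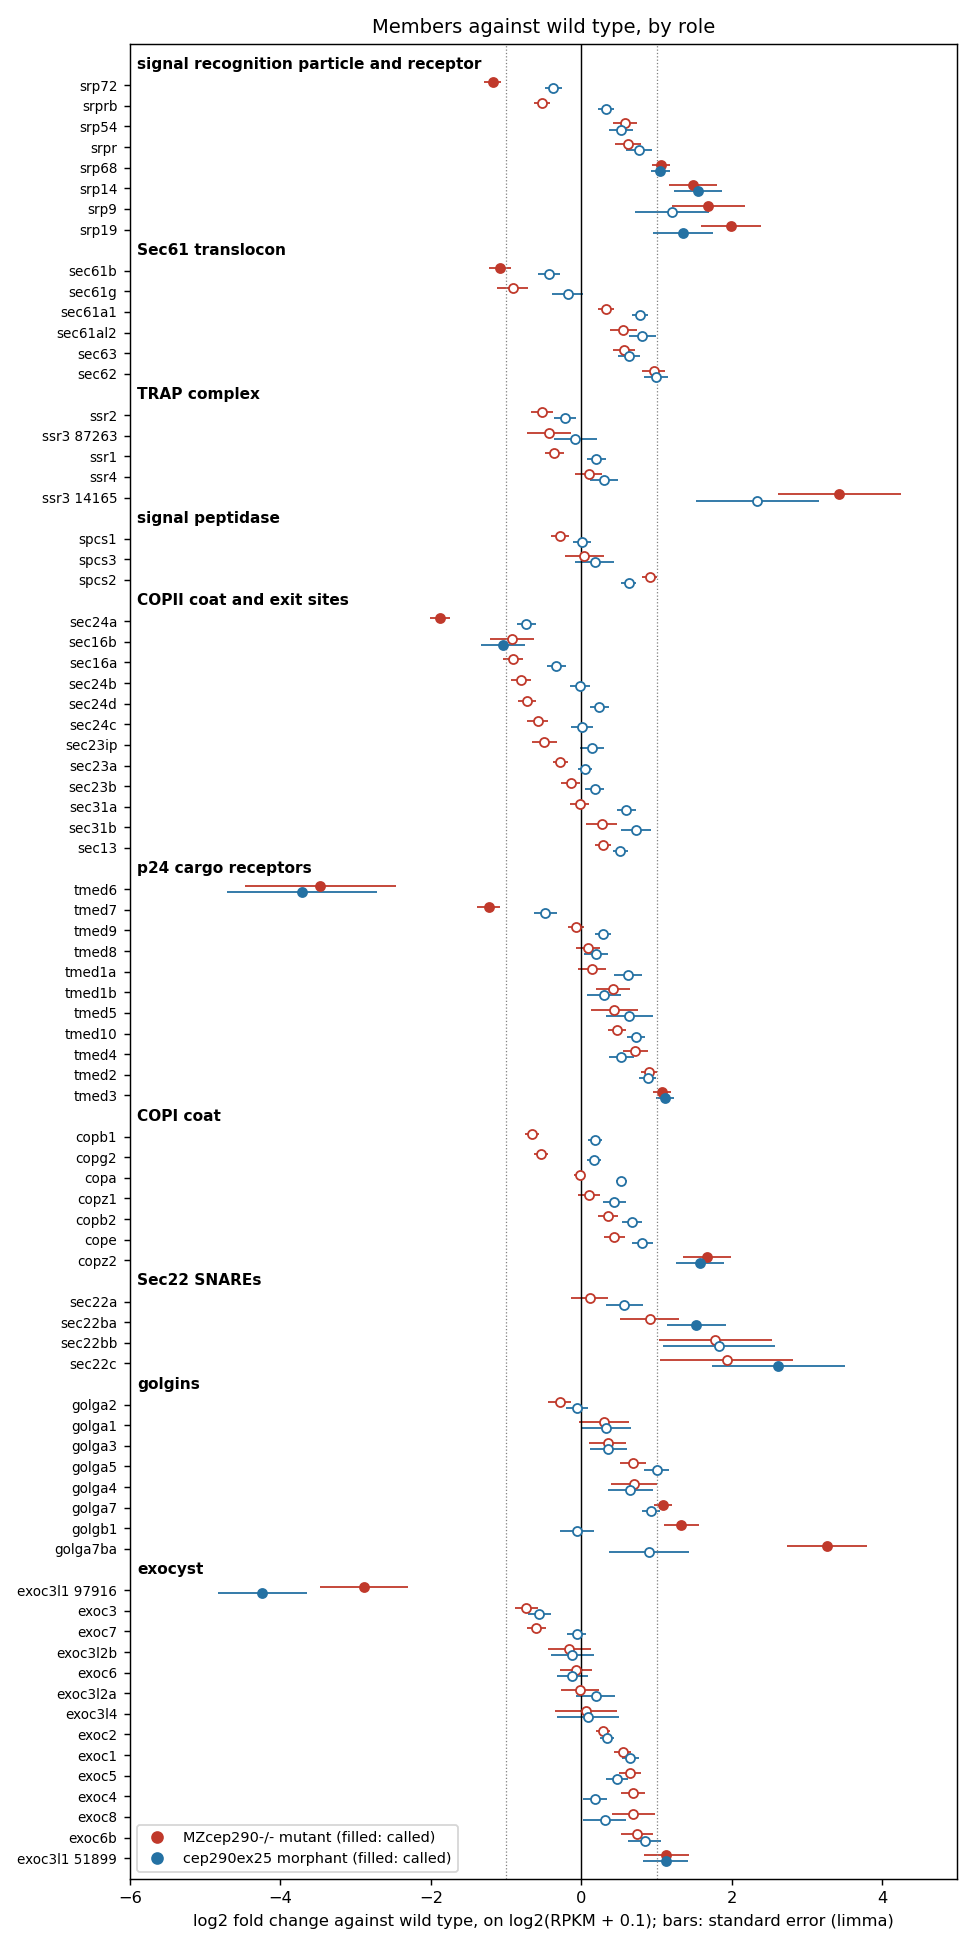
Log2 fold change against wild type for the 78 tested genes, grouped by role, on log2(RPKM + 0.1). Points are limma estimates for MZcep290-/- mutants (red) and cep290ex25 morphants (blue), bars are standard errors, and filled points passed an adjusted p of 0.05 with a fold above 2. Within most complexes the subunits spread to both sides of 0, whereas 10 of 12 COPII genes lie at or left of 0 in the mutant. Of all 21982 genes tested, 10805 had estimates above 0 in the mutant.

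The signal recognition particle split between its subunits. The *srp72* transcript, whose protein pairs with SRP68 in the S domain of the particle, was at 83.1, 73.2 and 88.9 RPKM in WT, 37.6, 35.2 and 35 in Mut and 68.7, 53.6 and 67.4 in Mor. All Mut libraries lay below all Mor libraries, and all Mor libraries below all WT libraries. The fall in Mut was 2.27-fold (log2 -1.18 ± 0.12, adjusted p = 9.9e-05), and the value in Mor was -0.37 ± 0.12 (adjusted p = 0.0316). The Mut call was lost under read-total scaling, at -0.45. Its partner *srp68* went the other way, from 11.3, 13.9 and 15.4 RPKM in WT to 28.8, 28.1 and 27.8 in Mut and 25.3, 30.6 and 27.9 in Mor. Both groups were about 2-fold above WT, at log2 1.06 ± 0.13 and 1.05 ± 0.13 (adjusted p = 2.7e-04 and 4.9e-04), and Mut and Mor overlapped. Without the first WT pool the estimates were 0.94 and 0.93, just under the fold threshold, and in Mor without the second Mor pool 0.98. The Mut call was also lost with cyclic loess. In all the Mor call was lost in 5 of 19 alternatives, among them median-of-ratios scaling and cyclic loess, with estimates down to 0.71.

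The small subunits of the particle rose with *srp68*. *srp19*, which helps SRP54 bind the particle's RNA, was at 3.6, 1.74 and 7.15 RPKM in WT, 15.7, 15.2 and 12.6 in Mut and 9.29, 9.36 and 9.13 in Mor, a rise of 3.97-fold and 2.55-fold (adjusted p = 0.00449 and 0.0265). *srp14*, of the domain that slows translation, was at 9.61, 4.18 and 11.6 RPKM in WT, 25, 20 and 21 in Mut and 20.5, 22.5 and 26 in Mor, a rise of 2.8-fold and 2.92-fold (adjusted p = 0.0065 and 0.00561). Its partner *srp9* rose 3.22-fold in Mut (adjusted p = 0.0247), while in Mor its libraries at 13.5, 16.2 and 15.3 RPKM overlapped WT at 13.7, 2.4 and 8.05. WT was the noisiest group for all 3 genes. The Mut call of *srp9* was lost without the second WT pool (0.99) and without any 1 of the Mut pools (adjusted p = 0.0626 to 0.0731). It was also lost with cyclic loess and with only the compared groups fitted. Without the first WT pool *srp9* was called higher in Mor too (1.74, adjusted p = 0.0114). The call of *srp19* in Mor was lost in 7 of 19 alternatives, among them without the first WT pool (1.36, adjusted p = 0.0506), without the second (0.85) and without any 1 of the Mor pools (adjusted p = 0.0635 to 0.0687).

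*srp54*, which holds the signal peptide, was above WT by 0.58 in Mut and 0.53 in Mor on the log2 scale (adjusted p = 0.021 and 0.0308). The receptor subunits diverged. *srpr*, the cytoplasmic receptor GTPase, was above WT in both groups (0.62 and 0.77), whereas *srprb*, its membrane anchor, was at 25.1, 21.8 and 20 RPKM in WT, 15.4, 15 and 15.8 in Mut and 28.2, 25.7 and 30.2 in Mor. The direct difference of *srprb* between Mut and Mor was -0.85 ± 0.11 (adjusted p = 0.00162), with no overlap.

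**Figure D2:**
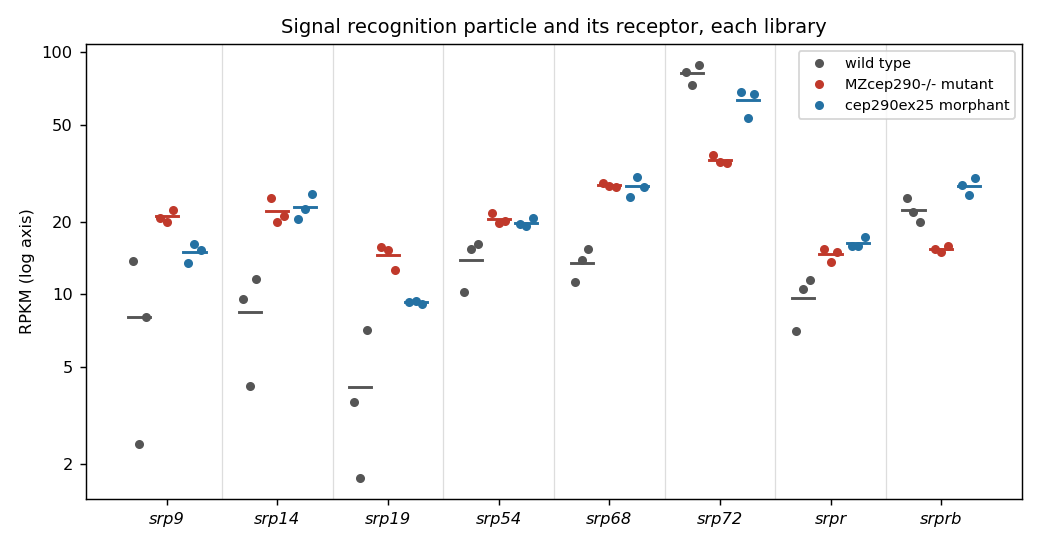
RPKM on a log axis for the 8 genes of the signal recognition particle and its receptor in each of the 9 libraries; points are libraries and lines are group means. *srp72* alone among the particle subunits is lower in both groups than in wild type, and *srprb* is lower in the mutant only.

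In the Sec61 translocon the small subunits and the channel went in opposite directions. *sec61b*, a small tail-anchored subunit, was at 99.7, 151 and 147 RPKM in WT, 58.8, 62.7 and 63.6 in Mut and 94.6, 91.1 and 106 in Mor. Its fall in Mut was 2.12-fold (log2 -1.08 ± 0.15, adjusted p = 6.6e-04), a call lost on the fold threshold without the second WT pool (-0.97) or the third (-0.99). The call was also lost with read totals and with cyclic loess, and the estimate nearest 0 over the alternatives was -0.35. The other small subunit, *sec61g*, was -0.91 in Mut (adjusted p = 0.00805) and -0.18 in Mor (adjusted p = 0.525). The channel gene *sec61a1* was above WT in both, by 0.33 in Mut and 0.78 in Mor (adjusted p = 0.0316 and 7.1e-04), with 96.8, 88.6 and 112 RPKM in WT, 121, 128 and 123 in Mut and 172, 155 and 182 in Mor. The post-translational partners *sec62* and *sec63* were also above WT, *sec62* by 0.96 and 0.99 and *sec63* by 0.57 and 0.63. All 6 translocon genes had adjusted p-values under 0.05 in Mut, 4 above and 2 below WT, beside 17.8% and 18.2% of all genes.

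The TRAP complex, which helps some signal sequences engage the channel, and signal peptidase, which cuts the signal peptide, held few changes. *ssr2* was below WT in Mut at -0.52 (adjusted p = 0.02), and *ssr1*, *ssr4* and the main *ssr3* copy (ENSDARG00000087263) had adjusted p-values of 0.0587, 0.709 and 0.274. The second *ssr3* copy (ENSDARG00000014165) had 0, 1 and 10 reads in WT, 161, 94 and 116 in Mut and 23, 27 and 22 in Mor. It was called higher in Mut (adjusted p = 0.0105) from WT counts near the floor, and reads could be shared between the copies. *spcs2* was 0.91 above WT in Mut (adjusted p = 2.1e-04) and 0.63 in Mor (adjusted p = 0.00192), whereas *spcs1* and *spcs3* had adjusted p-values of 0.1 and 0.927 in Mut.

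The COPII coat had the lowest median of the 10 roles in the mutant. Of its 12 genes, 8 were below WT at an adjusted p under 0.05 in Mut and 0 above, beside 18.2% and 17.8% of all genes. In Mor 2 were below and 3 above, beside 18.5% and 16.6%. The median log2 fold change was -0.53 in Mut and 0.10 in Mor. Under read-total scaling 1 was below and 5 were above WT in Mut, and the median turned to 0.19, while all genes stood at 0.68. The share of all genes at that threshold was not counted under read totals. Relative to all genes the COPII median was -0.49 with read totals and -0.86 with cyclic loess. Summed over the 12 genes, the level was 193 to 221 RPKM in WT, 146 to 155 in Mut and 205 to 231 in Mor. At the deposited scaling the Mut libraries thus fell below both other groups. The normalized library sizes behind it were 0.737 to 0.859 times the read totals in WT and 1.31 to 1.32 times in Mut. The order of the sums therefore depends on that scaling.

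The largest difference in this group was that of *sec24a*, which encodes a cargo-binding subunit of the inner coat. It was at 31.4, 39.6 and 39.7 RPKM in WT, 10.1, 9.77 and 9.84 in Mut and 24.1, 19 and 23.7 in Mor. The 3 groups formed separate steps, with Mut 3.68-fold below WT (log2 -1.88 ± 0.13, adjusted p = 2.3e-05) and 2.23-fold below Mor (adjusted p = 9.9e-04). The value in Mor against WT was -0.73 (adjusted p = 0.00288). The call against WT held in all 19 alternatives, at -2.03 to -1.15. The call against Mor was lost with read totals (-0.72) and cyclic loess (-0.96).

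The other *sec24* paralogs were lower in Mut as well but not in Mor. *sec24d* was at 20, 20.1 and 25.1 RPKM in WT, 13.1, 13 and 13 in Mut and 28.7, 22.8 and 25.2 in Mor. Its direct difference between Mut and Mor was -0.96 ± 0.12 (adjusted p = 0.00165). *sec24b* was -0.80 in Mut (adjusted p = 0.00184) and -0.02 in Mor, and *sec24c* was -0.58 (adjusted p = 0.0123) and 0.01, with direct differences of -0.78 and -0.58 (adjusted p = 0.00566 and 0.0266). *sec23a*, the GTPase-activating partner of the Sec24 proteins, was at 23.1, 21.5 and 25.1 RPKM in WT, 19.9, 19 and 18.2 in Mut and 25.1, 22.3 and 24.7 in Mor, a difference of -0.28 in Mut (adjusted p = 0.0457). *sec23b* libraries overlapped between Mut and WT. *sec23ip*, whose product binds the inner coat at exit sites, was -0.49 in Mut (adjusted p = 0.0401) and -0.63 against Mor (adjusted p = 0.0312).

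Of the exit-site scaffolds, *sec16a* was at 11.9, 14.9 and 13.1 RPKM in WT and 7.23, 6.72 and 7.05 in Mut (-0.91, adjusted p = 7.4e-04), with Mor between them at 11.2, 9.37 and 11.1. *sec16b* was the exception, at 3.76, 5.1 and 2.56 RPKM in WT, 2.09, 1.77 and 1.83 in Mut and 2.09, 1.57 and 1.59 in Mor. It passed both thresholds in Mor only (-1.04, adjusted p = 0.0236) and missed the fold threshold in Mut (-0.92, adjusted p = 0.0369), and the direct difference was 0.12 (adjusted p = 0.843). The Mor call was lost in 8 of 19 alternatives, among them without the second WT pool (-0.80), the second Mor pool (-0.97) or the third (-0.98). Without the third WT pool *sec16b* was called lower in Mut too (-1.17, adjusted p = 0.0113). The outer-coat genes did not follow. *sec13*, *sec31a* and *sec31b* were above WT in Mor (0.52, 0.60 and 0.73) at adjusted p-values of 0.00444, 0.00575 and 0.0208, and in Mut stood at 0.29, -0.02 and 0.27 with adjusted p-values of 0.0545, 0.901 and 0.323.

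**Figure D3:**
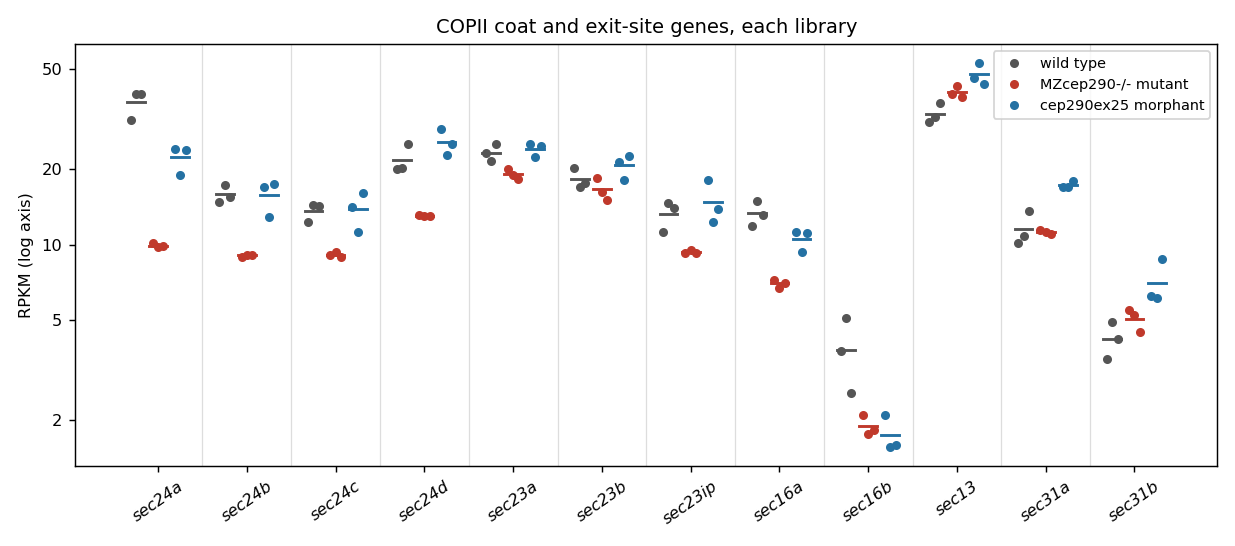
RPKM on a log axis for the 12 COPII and exit-site genes in each of the 9 libraries; points are libraries and lines are group means. At the deposited scaling the 3 mutant libraries lie below all wild-type libraries for the 4 *sec24* paralogs, both *sec16* genes, *sec23a* and *sec23ip*. Morphant libraries lie near wild type except for *sec24a*, *sec16a* and *sec16b* below and *sec13*, *sec31a* and *sec31b* above. The share of all genes with such a separation was not counted. With read totals the mutant estimates of *sec23a* and *sec24d* against wild type turned to 0.44 and 0.01.

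At the deposited scaling the COPI coat was higher in Mor and divided in Mut. In Mor all 7 genes had estimates above 0, beside 10558 of all 21982 genes. Of the 7, 5 had an adjusted p under 0.05, beside 16.6% of all genes above WT at that threshold. Summed COPI levels were 453 to 469 RPKM in Mor, against 288 to 385 in WT and 330 to 335 in Mut. These sums also depend on the scaling. At an adjusted p under 0.05, 2 of the 7 were above and 2 below WT in Mut, beside 17.8% and 18.2% of all genes. Under read-total scaling 5 were above and 0 below in Mut, and 7 above in Mor. The share of all genes at this threshold was not counted under read totals, where their medians were 0.68 in Mut and 0.22 in Mor. The median difference between Mut and Mor was -0.37, and -0.02 with cyclic loess. *copa*, the largest subunit, was at 45.7, 43.3 and 45.3 RPKM in WT, 46.0, 43.6 and 42.9 in Mut and 67.1, 61.4 and 65.7 in Mor. It was thus 0.53 above WT in Mor (adjusted p = 9.6e-04) and level with WT in Mut (-0.02 ± 0.07, adjusted p = 0.864).

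The beta subunits of COPI separated. *copb1*, of the adaptor-like inner layer, was at 54.7, 63.3 and 69.1 RPKM in WT, 39.0, 38.4 and 40.7 in Mut and 70.2, 69.3 and 71.6 in Mor. It was -0.66 in Mut (adjusted p = 7.2e-04) and -0.84 against Mor (adjusted p = 9.5e-04). *copg2*, its neighbour in that layer, was likewise lower in Mut (-0.54, adjusted p = 0.00199). *copb2*, of the outer layer, was at 34.5, 43.2 and 52.4 RPKM in WT, 53.5, 54.9 and 55.2 in Mut and 70.2, 69.1 and 65.1 in Mor, above WT by 0.35 in Mut (adjusted p = 0.0687) and 0.67 in Mor (adjusted p = 0.00474). The call that passed in both groups was the zeta subunit *copz2*, from 2.06, 5.89 and 3.61 RPKM in WT to 11.3, 12.5 and 10.6 in Mut and 10.4, 12.7 and 9.51 in Mor, and it held in all 19 alternatives. Its paralog *copz1*, at 49.1, 46.5 and 72.7 RPKM in WT, was the more abundant copy and had a difference of 0.10 in Mut (adjusted p = 0.636).

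Among the p24 proteins, which pack cargo into COPI and COPII vesicles, *tmed7* and *tmed2* changed places in order of abundance. *tmed7* was at 77.5, 81.4 and 80.5 RPKM in WT, 34.8, 35.8 and 31.6 in Mut and 56.4, 45.1 and 72.7 in Mor, 2.34-fold lower in Mut (log2 -1.23 ± 0.15, adjusted p = 3.3e-04, and -0.50 and not called under read-total scaling). *tmed2* was at 37.6, 34.1 and 44.8 RPKM in WT and 73.0, 74.1 and 69.2 in Mut (0.90, adjusted p = 3.0e-04), with Mor at 73.7, 74.7 and 65.5. *tmed3* was called higher in both groups, 2.11-fold in Mut (log2 1.07, and 0.97 without the first WT pool) and 2.16-fold in Mor from 9.79, 11.8 and 12.3 RPKM. Both calls were lost with cyclic loess. *tmed10*, the partner of *tmed2*, was above WT by 0.47 and 0.73 (adjusted p = 0.0144 and 0.00198). *tmed6* was called lower in both, but on 31, 3 and 11 reads in WT, 1, 5 and 3 in Mut and 0, 9 and 0 in Mor, and the calls were lost in 5 and 6 of 18 alternatives, among them without the first WT pool (-2.66 and -2.89, adjusted p = 0.065 and 0.0507). This gene passed the filter on low values mainly through its WT libraries, which favours a lower call.

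Ratios between partners within a library do not depend on how libraries were scaled. These pairs were chosen after their values were seen. In every drawn pair except *sec23b* over *sec23a* the gene lower in Mut was on top, so a low ratio in Mut was set by the choice. The *srp72* to *srp68* ratio was 7.33, 5.28 and 5.76 in WT, 1.31, 1.25 and 1.26 in Mut and 2.71, 1.75 and 2.41 in Mor. The *tmed7* to *tmed2* ratio was 2.06, 2.39 and 1.8 in WT and 0.477, 0.483 and 0.456 in Mut, so the more abundant of these transcripts differed between the groups. For *copb1* over *copb2* the WT values were 1.59, 1.46 and 1.32 and the Mut values 0.729, 0.701 and 0.738. For *sec61b* over *sec61a1* they were 1.03, 1.71 and 1.31 in WT and 0.484, 0.491 and 0.515 in Mut, and for *sec24a* over *sec24d* 1.57, 1.97 and 1.58 and 0.766, 0.75 and 0.76. Each of these ratios was lowest in Mut, with Mor between, and no group overlapped another. For *srprb* over *srpr* the values were 3.54, 2.08 and 1.73 in WT, 1, 1.11 and 1.06 in Mut and 1.77, 1.63 and 1.75 in Mor, where Mor overlapped WT. For *sec23b* over *sec23a* the groups did overlap, at 0.697 to 0.872 in WT and 0.828 to 0.925 in Mut. Further pairs were computed and not drawn, some also lower in Mut. Mut and WT overlapped for *srp9* over *srp14*, *sec24c* over *sec24d* and *golgb1* over *golga5*. The ratio was higher in Mut for *srp19* over *srp72* (mean 0.404, against 0.0492 in WT) and *copz2* over *copz1* (0.195, against 0.0728).

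**Figure D4:**
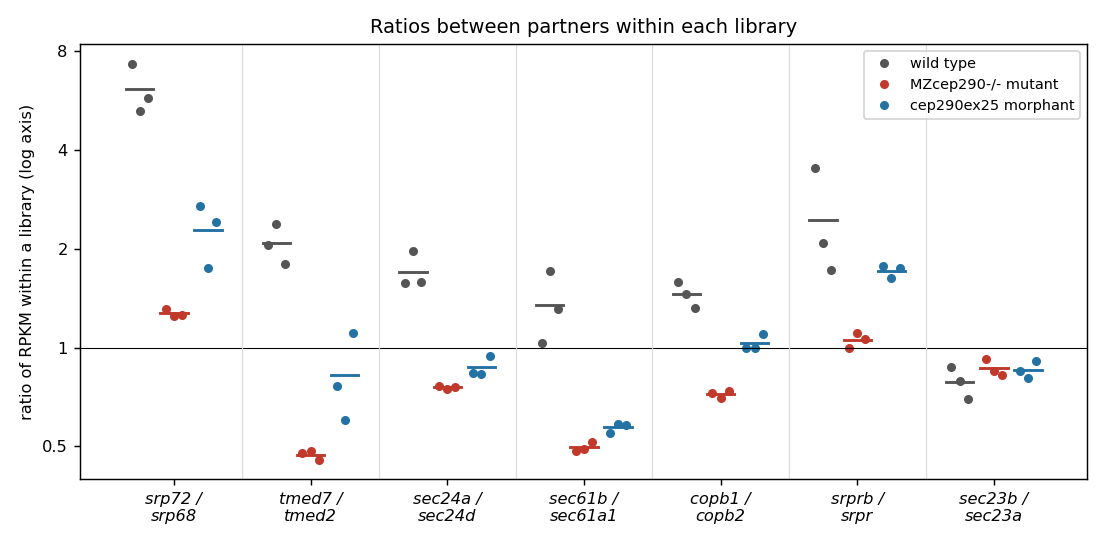
Ratio of RPKM between partners within each library, on a log axis with a line at 1, for 7 pairs chosen after their values were seen. Points are libraries and short lines are group means. In the first 5 pairs mutant and morphant libraries lie below every wild-type library. For *srprb* to *srpr* only the mutant libraries do, and the *sec23b* to *sec23a* pair overlaps.

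The Sec22-named genes, which include SNAREs that fuse carriers between ER and Golgi, had low counts. *sec22ba* was at 2.32, 9.38 and 4.89 RPKM in WT, 9.17, 9.12 and 8.8 in Mut and 13, 15.5 and 13.4 in Mor, called higher in Mor only (log2 1.53 ± 0.39, adjusted p = 0.0149). Without the second Mor pool that call was lost (1.45, adjusted p = 0.0506), as it was with cyclic loess and with only the compared groups fitted. *sec22c*, with 0, 9 and 4 reads in WT, 58, 45 and 58 in Mut and 26, 51 and 42 in Mor, was called higher in Mor (adjusted p = 0.045), a call lost in 10 of 18 alternatives, among them without the third WT pool (adjusted p = 0.0554) and without any 1 of the Mut or Mor pools (adjusted p = 0.0685 to 0.13). The direct differences between Mut and Mor had adjusted p-values of 0.339 and 0.661. *sec22bb*, with 0, 9 and 8 reads in WT, was not called in either group with all pools. Without the second WT pool *sec22ba* and *sec22c* were called higher in Mut too (1.39 and 2.83, adjusted p = 0.00558 and 0.0218). *sec22bb* was then called higher in Mut and Mor (2.35 and 2.41, adjusted p = 0.0398 and 0.0375). The restriction of the *sec22ba* and *sec22c* calls to Mor thus depended on that pool.

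The summed level of the golgin-named genes was higher in both groups than in WT, and highest in Mut. It was 46.2 to 46.9 RPKM in WT, 84.5 to 88.4 in Mut and 64.5 to 73.6 in Mor, with most of the rise in Mut from 2 genes, *golga7* and *golga7ba*. Those encode partners of palmitoyltransferases and are not coiled-coil tethers. *golga7ba* was at 0.599, 2.23 and 4.12 RPKM in WT, 17.8, 18.0 and 18.5 in Mut and 3.88, 3.9 and 2.71 in Mor. It was 9.57-fold above WT (log2 3.26 ± 0.53, adjusted p = 0.00159) and 5.12-fold above Mor (adjusted p = 0.019), and Mor overlapped WT. The call against Mor was lost without any 1 of the Mut pools, or without the first or the third Mor pool (2.19 to 2.44, adjusted p = 0.0538 to 0.0741). Without the third WT pool, the highest of WT, it was also called in Mor against WT (1.48, adjusted p = 0.0308, from 0.90 with all pools). *golga7* was called in Mut (1.09, adjusted p = 1.9e-04) and missed the fold threshold in Mor (0.93, adjusted p = 6.7e-04), which it passed without the first WT pool (1.03) or the third Mor pool (1.02). Its Mut call was lost with cyclic loess (0.99).

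*golgb1*, which encodes giantin, the large membrane-anchored tether of COPI vesicles, was higher in the mutant alone. It was at 2.92, 2.2 and 1.83 RPKM in WT, 5.91, 6.14 and 5.51 in Mut and 2.04, 2.53 and 1.99 in Mor. The 3 Mut libraries stood above all others, and Mor overlapped WT. The differences were log2 1.33 ± 0.23 against WT (adjusted p = 0.0022), 1.39 ± 0.23 against Mor (adjusted p = 0.00493) and -0.06 between Mor and WT (adjusted p = 0.855). Both Mut calls held in all 19 alternatives. Of the other coiled-coil golgins, *golga5* was above WT in Mut and Mor (0.69 and 1.00, adjusted p = 0.0121 and 0.00235), and *golga1*, *golga2*, *golga3* and *golga4* had adjusted p-values of 0.522, 0.153, 0.304 and 0.0974 in Mut.

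The exocyst tethers post-Golgi carriers at the plasma membrane and is used in ciliogenesis. None of its core subunits passed the fold threshold in either group. *exoc1*, *exoc2*, *exoc4*, *exoc5* and *exoc6b* were above WT in Mut at an adjusted p under 0.05 (0.55, 0.29, 0.69, 0.65 and 0.74), and *exoc3* and *exoc7* below (-0.73 and -0.60). *exoc3* was at 12.2, 15.8 and 17.2 RPKM in WT, 8.69, 9.27 and 8.85 in Mut and 9.71, 11.8 and 9.06 in Mor, so both groups lay under WT. The calls were 2 rows named *exoc3l1*, related in name to *exoc3* and not known as core subunits. The copy ENSDARG00000051899 was higher in both groups (1.13 and 1.12), calls lost without the first WT pool (0.77 and 0.76), without any 1 of the Mut pools (adjusted p = 0.055 to 0.0581) and without the first Mor pool (0.98). Both calls were also lost with cyclic loess and with 1 added to RPKM in place of 0.1. The copy ENSDARG00000097916 had 19, 8 and 11 reads in WT, 13, 3 and 3 in Mut and 0 in every Mor library. It passed the filter on low values through WT alone, so only a lower call against WT was open to it. Against a floor of 3 reads per library, Mor was at least 9.13-fold below the WT mean of 1.92 RPKM at the deposited scaling. That bound makes no allowance for error in the few WT reads. With cyclic loess the call was lost in Mut (-0.77, adjusted p = 0.349) and in Mor (-0.90, adjusted p = 0.288).

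Set directly against each other, Mut and Mor differed by both thresholds in 3 of the 78 genes. *golgb1* and *golga7ba* were higher in Mut (2.56%, beside 3.48% of all genes) and *sec24a* was lower (1.28%, beside 2.4%). At an adjusted p under 0.05 and any fold, 2 were higher and 18 lower in Mut, beside 5.28% and 8.33% of all genes. The median difference was -0.20, beside 0.14 for all genes, and with genes averaging 2 RPKM or more -0.22 beside -0.02. With cyclic loess it was -0.07, beside -0.01. The 18 comprised 7 COPII genes, 3 COPI genes (*copa*, *copb1* and *copg2*), 3 translocon genes (*sec61a1*, *sec61b* and *sec61g*), *srp72*, *srprb*, *ssr1*, *tmed7* and *exoc7*. With cyclic loess scaling the counts were 3 higher and 9 lower, and with read totals 12 higher and 6 lower. Shares of all genes at this threshold were not counted under these scalings. The medians of all genes there were -0.01 with cyclic loess and 0.55 with read totals. The comparisons of Mut and of Mor with WT share the WT libraries, so calls they have in common are not independent.

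Calls of lower genes varied with expression level. Of all genes under 2 RPKM, 21.4% were called lower in Mut and 34.4% in Mor, and from 4 to 8 RPKM 3.8% and 2.76%. Of those averaging 64 RPKM or more, 37.9% were called lower in Mut and 6.27% in Mor. In Mut their median was -0.69. The 8 genes described here in that band had a median of -0.09, with 1 called lower (*sec61b*). They ran from 73.7 to 131 RPKM, while all genes in the band had a geometric mean of 229 RPKM, so the levels were unlike. The median of all genes from 32 to 64 RPKM was -0.02. From 8 to 16 RPKM, the level of *sec16a*, *sec24b*, *sec24c* and *sec23ip*, the median of all genes was 0.24 and 4.25% were called lower. These 4 COPII genes thus lay below the median of genes at their own level, as did *sec31a* (-0.02), also in this band. All 20 genes described here in this band had a median of 0.55, with 3 called higher and 0 lower. Among genes averaging 2 RPKM or more, 9.49% of those under 1000 bp, which include *srp9* and *srp14*, were called higher in Mut, against 15.5% of those from 1000 to 2000 bp.

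**Figure D5:**
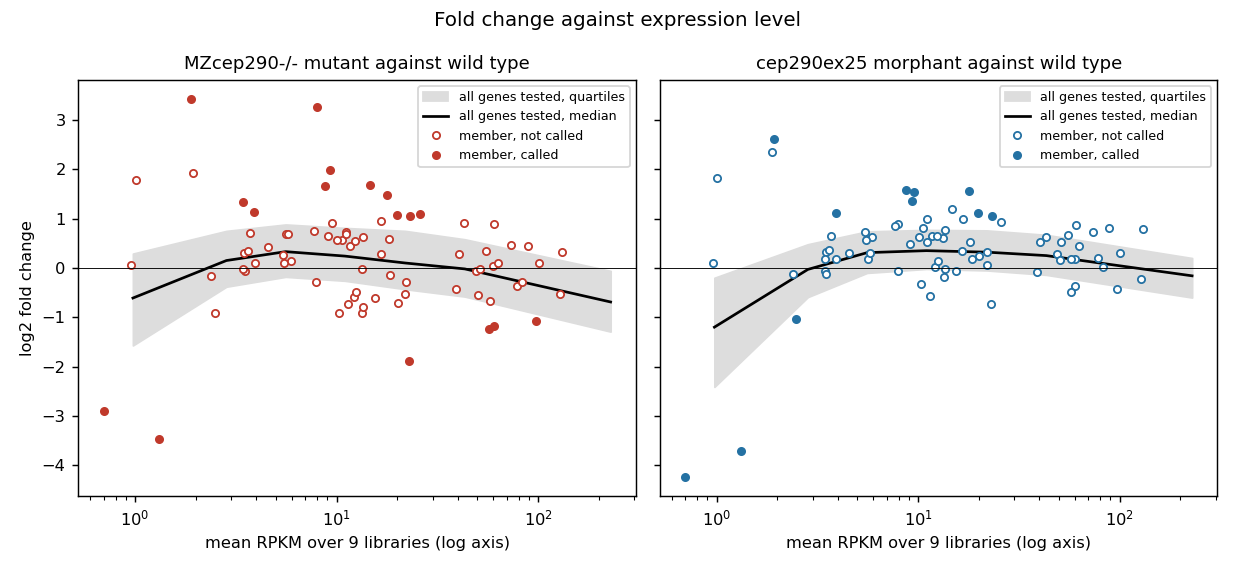
Log2 fold change against wild type plotted by mean RPKM over the 9 libraries (log axis), for the mutant (left) and the morphant (right). Points are the 78 tested genes, filled where called; the black line and grey band are the median and quartiles of all genes tested in bands of level. In the mutant the median of all genes falls to -0.69 at 64 RPKM and above, where their geometric mean level is 229 RPKM. The 8 genes described here in that band, at 73.7 to 131 RPKM, have a median of -0.09.

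Summed markers of some secretory tissues also differed between the groups, as did the whole-embryo markers. The summed level of 8 exocrine pancreas markers was 22.8 to 36.8 RPKM in WT, 6.63 to 7.9 in Mut and 8.6 to 10.1 in Mor. Of the 7 tested, 4 were called lower and 0 higher in each group. Among them *amy2a* and *ctrb1* passed the filter on low values through WT alone, so only a lower call against WT was open to them. *ela3l* was at 0 in every Mor library but also in the second WT library, and was not called in Mor (adjusted p = 0.0624). *ela2* was called lower in Mut (-1.99) and stood at 0.87 in Mor (adjusted p = 0.316). The 6 liver markers summed to 8417 to 11847 RPKM in WT, 3496 to 3651 in Mut and 5041 to 7136 in Mor. Nearly all of that sum was *apoa2* (mean 9353 RPKM in WT). In Mut 3 liver markers were called lower and *apoba* higher (1.51), and *fgb* and *tfa* were at -0.09 and 0.07. The 6 hatching gland genes summed to 165 to 241 RPKM in WT, 78.7 to 92.2 in Mut and 790 to 973 in Mor, with 1, 1 and 2 of them at 0. Most of that sum was *he1a* (mean 166 RPKM in WT and 596 in Mor). Of the 5 tested, 4 were called higher and *he2* lower (-4.24) in Mor, and 0 higher and 3 lower in Mut. The 5 cartilage markers were at 395 to 463, 347 to 361 and 410 to 421 RPKM, mostly *col2a1a* (mean 265 RPKM in WT). Of these *matn1* was called lower in Mut (-1.52), while *epyc* and *sox9a* were above WT (0.98 and 0.62, adjusted p = 2.2e-04 and 4.3e-04). The part of these tissues in the changes of the coat and ER genes was not tested. Some called genes overlap a neighbour in the RefSeq annotation, and the counting options are not stated. The neighbour of *golga7ba*, *crtac1a*, was at -0.58 in Mut (adjusted p = 0.504), and that of *sec61b*, *alg2*, at 0.21 (adjusted p = 0.401). Of the neighbours of *sec24a*, *ddx46* was at -0.08 (adjusted p = 0.899). *camlg* was below WT, as *sec24a* was, at -0.56 (adjusted p = 0.0127). Other genes annotated over *sec24a* were not examined. With all pools *sec22ba* was called in Mor only, whereas its neighbour *imp3* was above WT in both Mut and Mor, at 2.08 and 1.71 (adjusted p = 0.00318 and 0.00864). That of *sec16b*, *znf648*, was above WT at 1.65 and 1.62, while *sec16b* was below WT in both.

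Outside the named families, other genes of the same steps also moved both ways. Their counts stand beside 10.4% of all genes called higher and 12.1% lower in Mut, and 7.45% and 14.9% in Mor, and nothing particular to any list was read from them. Of 21 coat partners tested, 3 were called higher and 1 lower in Mut. *arcn1a*, a delta subunit of COPI, was at 6.87, 6.98 and 12.7 RPKM in WT and 28.8, 29.1 and 28.1 in Mut (1.75), and *sar1ab*, a GTPase that starts COPII assembly, was higher by 2.25. *tfg*, which organises ER exit sites, was lower, from 99.9, 103 and 94.5 RPKM to 43.4, 43.3 and 44.3 (-1.18). Of 15 cargo and retrieval receptors, 4 were higher and 1 lower. The KDEL receptors, which return ER residents by COPI, parted, with *kdelr2a* at 1.88 in both Mut and Mor, and *kdelr3* at -1.51 in Mut and -0.09 in Mor (direct difference -1.42).

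For the other steps the Mut counts were 3 higher and 4 lower of 36 Golgi tethers and SNAREs, 0 and 2 of 11 oligosaccharyltransferase genes, 7 and 0 of 22 other ER entry factors and 4 and 1 of 25 clathrin and adaptor genes. Among the tethers, the TRAPP subunit *trappc4* was at 2.01 and the Golgi stacking gene *gorasp2* at -1.25. The oligosaccharyltransferase calls were *rpn1* (-1.08) and *ostc* (-1.02), subunits of the enzyme that glycosylates proteins as they enter the ER. *tram1*, a neighbour of the translocon, was at 1.89, *sec11a*, the catalytic subunit of signal peptidase, at 1.67, and *emc3*, of a membrane insertase, at 2.08. In Mor the counts were 3 and 0, 4 and 0, 4 and 0, 0 and 0, 6 and 1, and 4 and 0 for the 6 lists in the same order. The 1 gene lower in Mor was *emc4* (-1.24), which was at -0.51 in Mut (adjusted p = 0.294). Directly between Mut and Mor, *kdelr3* and *bag6* (-1.17) were called lower and 0 genes higher.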

How the data were processed

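RNA-seq libraries from 3 pools of 30 whole embryos per group were analysed. PolyA RNA was selected and strand-directional libraries were read as 50-bp single ends. The authors ran STAR against the Zv9 genome, HTSeq for gene counts and edgeR; versions and counting options are not given in the sources used here. The deposited unit is RPKM, computed by the authors on normalized library sizes. Multiplying by length recovered whole reads for 100% of values (tolerance 0.01).

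Because the unit is RPKM, log2(RPKM + 0.1) was tested with limma 3.58.1 (R 4.3.3, trended variance) on all 9 libraries as 3 group means, after a filter of 0.5 RPKM in 3 libraries, with Benjamini-Hochberg adjustment over all genes. For a single gene, the smallest two-sided exact permutation p is 0.10 with 3 libraries a group, so no such p is given. The 3 reads taken as the floor cover counting error only, since reads are not independent molecules. Of the WT libraries, the third was numbered by its title, since its short label differs (WT2.1).

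The genes and gene lists were chosen with earlier results of these data known. Genes were named by rule: per role and comparison, up to 4 called genes with the largest change, mean RPKM of 1 or more and groups that did not overlap, the most abundant gene of each role, paralogous copies, and *golgb1*, *copa*, *copb1*, *copb2*, *sec23a* and *sec24d*. Other genes of a role are named after their values were seen. In the symbol table, 67 of 79 identifiers matched, 60 with the same symbol. No coordinates or sequences are printed, because no Zv9 reference was used here. The 19 alternatives changed the pseudocount, filter, scaling, samples fitted, variance weights or replicate block, or left out each library in turn.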

Additional observations from a re-analysis of the deposited data

How the results depend on the processing

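Of 31 calls in the genes named by rule, 10 held in every alternative that could be run for the gene (18 or 19) and 21 were lost in at least 1. Scaling by library read totals, which moves the median of all genes, changed the most. There 39 of the genes described here were called higher and 3 lower in Mut against WT. A further 22 calls were higher in Mor against WT, and 0 were lower in Mut against Mor. These counts and those that follow stand without the shares of all genes called under the same settings. They show only how calls depend on processing, and nothing particular to these genes is read from them. Cyclic loess gave 0 lower in Mut against Mor and 1 lower in Mor against WT, as did the higher mean filter, group weights and fitting the compared groups alone (1 each), and this last fit gave 4 higher in Mor against WT. Leaving out each library in turn gave 8 to 14 higher and 5 to 6 lower in Mut against WT, 5 (without the second Mor pool) to 12 higher and 1 (without the third Mor pool) to 3 lower in Mor against WT, and 1 to 2 higher and 1 to 2 lower in Mut against Mor, where *sec24d* (-1.04) joined without the second Mor pool. With the replicate block the counts were 11, 6, 8, 3, 2 and 1, unchanged; same-numbered libraries deviated together at -0.0409 to 0.00598, so the numbers do not pair the pools. Sign changes were listed for the genes named by rule alone, where the main or the altered fit had an adjusted p under 0.05. Read totals turned the sign against WT in Mut of *copa* (0.71), *copb1* (0.07), *sec23a* (0.44), *sec24d* (0.01), *spcs1* (0.46) and *ssr2* (0.21). They also turned *exoc2* (0.39) and *tmed3* (0.40) in Mut against Mor. Another 57 sign changes in the genes named by rule had larger adjusted p-values in both fits. Genes not named by rule were not checked for their sign. Cyclic loess turned *exoc2* (-0.03) and *sec23a* (-0.29) in Mor against WT. WT libraries, the shallowest, limit the genes under about 2 RPKM.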
